A study of Mus musculus with 10 samples.

Results

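The fibroblast growth factor (FGF) family was followed on the arrays through 37 genes, taken by gene symbol alone. These were 22 FGF genes, 6 receptor genes with the co-receptor Klb among them, and 9 genes that act as feedback inhibitors or ETS transcription factors downstream of the receptors. They are 37 of 20863 genes that a feature (a spot on the array) names, and 91 features carry them. A gene was tested if 1 of its features lay above its array's 40th percentile on at least 2 arrays, which 30 of the 37 did, among 16726 genes tested.

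The arrays held total RNA of cultured mouse cells, labelled with Cy3, on 3 groups. Embryonic Sertoli-like cells induced from female tail tip fibroblasts (TTF-derived ieSCs) had 4 arrays, those induced from embryonic fibroblasts (MEF-derived ieSCs) also had 4, and the embryonic fibroblasts themselves (MEFs, the control) had 2. Every group came from a congenic background homozygous for R26-M2rtTA, an allele that expresses the doxycycline-dependent activator rtTA from the Rosa26 locus. Both kinds of ieSC carried the transgenes Nr5a1, Wt1, Dmrt1, Gata4 and Sox9, and the MEFs carried none of them. All groups grew for 2 weeks in F12/DMEM without doxycycline (dox), in 20% oxygen. TTFs before conversion were not analysed here, so TTF-derived ieSCs were set against MEFs, which are not the cells they came from.

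The arrays carry 5 names with 2 arrays each, so that array 2b of a group is the second array of its name 2. No label says that arrays of 1 name, or names 1 and 2, came from separate cultures or animals, so the p-values measure only the spread between these samples, part of which may be technical. Over all genes tested, the correlation was 0.9896 to 0.9966 between arrays sharing a name, 0.9878 to 0.9896 between names 1 and 2 of an ieSC group, and 0.926 to 0.9408 between ieSC and MEF arrays. Of 17 tested markers of the embryonic Sertoli cell, 10 were higher and 6 lower in ieSCs than in MEFs. Over all tested genes 25.9% were higher and 23.6% lower. The marker list holds the transgenes Nr5a1, Wt1, Dmrt1, Gata4 and Sox9, so its count is not independent evidence of cell identity. Whether their features read the introduced copies was not tested. The defining hormone gene Amh was not tested, with mean levels of 4.10 in TTF-derived ieSCs, 4.74 in MEF-derived ieSCs and 4.24 in MEFs, at the dim end of the arrays. Of 14 tested macrophage markers, 13 were lower in ieSCs, with a mean level of 6.556 to 6.72 in TTF-derived ieSCs, 6.624 to 6.859 in MEF-derived ieSCs and 11.94 in MEFs. The complement gene C1qa and the adaptor gene Tyrobp lay at the dim end of every array of both ieSC groups, and no marker of the list did so on the MEF arrays. Of 16 tested fibroblast markers, 12 were lower in ieSCs and 0 were higher, with a mean level of 9.569 to 10.82 in TTF-derived ieSCs, 9.738 to 9.931 in MEF-derived ieSCs and 15.40 to 15.45 in MEFs. The part of these 2 lists in the differences below was not tested.

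FGFs are secreted proteins that bind tyrosine kinase receptors together with heparan sulfate or, for the hormone-like FGFs, a Klotho co-receptor. The receptors signal through the RAS and ERK cascade, which switches on the ETS factors Etv4 and Etv5 and the inhibitors Spry, Spred and Dusp6, and these inhibitors then dampen the signal. In the mouse fetal testis, Fgf9 acting through Fgfr2 is known to sustain Sertoli cell fate, and in limb and lung the mesenchymal ligands Fgf7 and Fgf10 act on epithelial receptors.

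The ligand genes Fgf5, Fgf7 and Fgf10, the receptor genes Fgfr1 and Fgfr4, and the ETS gene Etv1 fell in both kinds of ieSC against MEFs. These falls held when the 2 arrays of each name were averaged. Fgf5 and Fgf10 would not have passed the filter without the MEF arrays, so their calls were partly set by it. Fgf1, Fgf18 and the phosphatase gene Dusp6 were called higher in both kinds, but with names averaged Fgf1 in MEF-derived ieSCs alone of these still passed. Fgf12, Fgf21, Spry1, Fgfrl1 and Fgf1 differed between TTF-derived and MEF-derived ieSCs.

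The promoter windows of 4 genes are shown here because these genes carry the results below. Fgf7 was lower in both kinds of ieSC than in MEFs, Fgf21 and Spry1 were higher in TTF-derived than in MEF-derived ieSCs, and Fgfrl1 was lower. Each window is the RefSeq sequence of build GRCm38.p6 from 250 bases before to 50 bases after the gene's start, 5′ to 3′ on the gene's strand. Capitals mark matches, on either strand, to the ETS core CCGGAAGT, the C/EBP-ATF composite element TGATGCAA, the TATA motif TATAAA and the GC box GGGCGG. The windows lie at chr2:126034408-126034707 on the plus strand for Fgf7, chr7:45615441-45615740 on the minus strand for Fgf21, chr3:37639697-37639996 on the plus strand for Spry1 and chr5:108693979-108694278 on the plus strand for Fgfrl1.
Fgf7: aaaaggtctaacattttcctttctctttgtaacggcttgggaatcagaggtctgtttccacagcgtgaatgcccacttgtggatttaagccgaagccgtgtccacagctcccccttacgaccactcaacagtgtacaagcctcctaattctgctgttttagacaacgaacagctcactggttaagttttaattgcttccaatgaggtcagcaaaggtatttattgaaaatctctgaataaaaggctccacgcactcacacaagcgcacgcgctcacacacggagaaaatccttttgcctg
Fgf21: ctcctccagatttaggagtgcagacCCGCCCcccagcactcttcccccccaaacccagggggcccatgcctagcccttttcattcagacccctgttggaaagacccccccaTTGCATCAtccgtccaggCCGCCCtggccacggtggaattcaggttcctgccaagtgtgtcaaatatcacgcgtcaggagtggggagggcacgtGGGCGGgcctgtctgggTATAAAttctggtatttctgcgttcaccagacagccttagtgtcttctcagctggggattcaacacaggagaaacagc
Spry1: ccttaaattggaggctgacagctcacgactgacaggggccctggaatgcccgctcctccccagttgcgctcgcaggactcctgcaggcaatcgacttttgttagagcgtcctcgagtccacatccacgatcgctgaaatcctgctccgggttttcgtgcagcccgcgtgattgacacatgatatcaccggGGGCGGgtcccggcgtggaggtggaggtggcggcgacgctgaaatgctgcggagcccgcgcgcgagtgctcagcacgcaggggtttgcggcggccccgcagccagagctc
Fgfrl1: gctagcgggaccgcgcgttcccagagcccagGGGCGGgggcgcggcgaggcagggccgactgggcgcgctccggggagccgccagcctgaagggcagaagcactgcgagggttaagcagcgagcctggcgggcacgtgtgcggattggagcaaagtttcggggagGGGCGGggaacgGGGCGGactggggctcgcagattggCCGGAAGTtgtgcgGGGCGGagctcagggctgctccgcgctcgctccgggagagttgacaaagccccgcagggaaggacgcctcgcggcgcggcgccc

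Of the 37 members, 28 had a promoter window, with 37 windows in all. The ETS core was in 1 of these 37 windows, that of Fgfrl1, where it starts 48 bases before the gene's start, against 3.89% of 32851 windows of all genes. The composite element was in the Fgf21 window alone, on the reverse strand 139 bases before the start, against 0.895% of all windows. TATAAA was in 4 member windows (those of Etv1, Fgf13, Fgf21 and Fgf5), against 13.6% of all windows, and in Fgf21 it starts 28 bases before the gene's start. The GC box was in 22 member windows, against 35.7% of all windows, with 4 copies in the Fgfrl1 window, 3 in that of Fgf21 and 1 in that of Spry1. The Fgf7 window held none of these letters. A match describes the sequence only, and the arrays measured nothing at a promoter.

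Levels below are deposited log2 intensities of 1 feature per gene, and a difference of 1 is a factor of 2 in intensity. The 40th percentile of the arrays lay between 4.988 and 5.023, and levels under it are called dim. A difference against a dim level depends on the floor of the array and is not a ratio of transcript amounts. Levels of different genes cannot be set against each other, since each feature has its own brightness. In these bulk cultures fewer cells that express a gene and less RNA per cell cannot be told apart. Tests are from limma over 16726 genes with Benjamini-Hochberg adjustment, and a member was called if its adjusted p was under 0.05.

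For ieSCs as the mean of both kinds minus MEFs, 7 of the 30 tested members were higher and 13 lower, where 25.9% of all tested genes were higher and 23.6% lower. The median difference was 0.04 over the members and 0.086 over all tested genes. For TTF-derived ieSCs minus MEFs, 4 members were higher and 14 lower, against 23.3% and 21.8% of all genes, with a median of -0.32 over the members and 0.0614 over all genes. For MEF-derived ieSCs minus MEFs, 6 were higher and 12 lower, against 27.2% and 24%, with medians of 0.10 and 0.101. The 2 MEF arrays serve both comparisons, so the values of the ieSC groups are given side by side and not correlated. A member that passed the filter only through the group where it was bright had to differ, so these counts describe the family and support nothing about it.

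**Figure D1:**
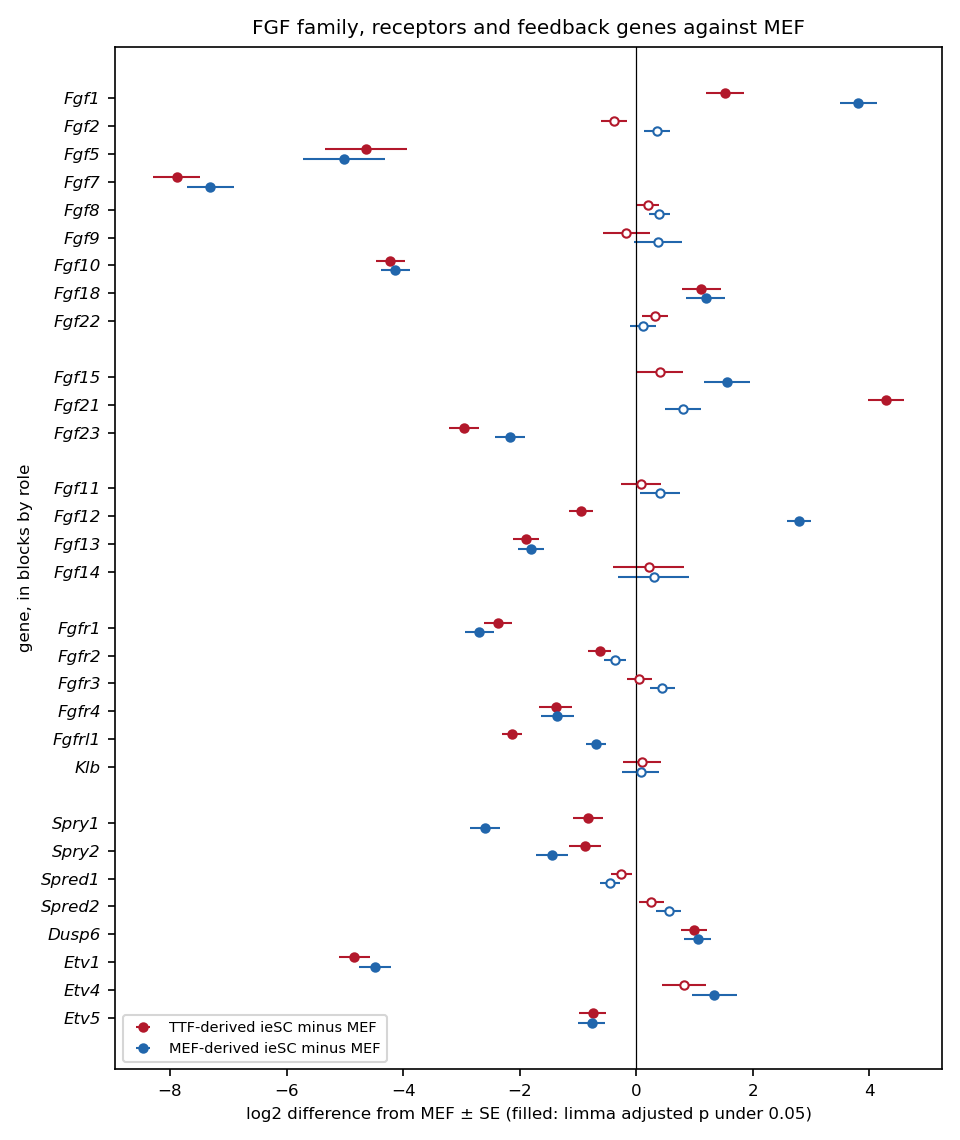
Log2 difference from MEFs, with its standard error, for the 30 tested members in blocks by role, from paracrine ligands at the top to feedback and ETS genes at the bottom. Red points are TTF-derived ieSCs, blue points MEF-derived ieSCs, and filled points have a limma adjusted p under 0.05. Fgf7, Fgf5, Fgf10 and Etv1 lie furthest left in both groups, and Fgf12 lies on opposite sides of 0.

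Of 15 paracrine ligand genes, which encode FGFs that act on nearby cells, 9 were tested. In either kind of ieSC 2 were higher and 3 were lower than in MEFs. Over all tested genes 23.3% were higher and 21.8% lower in TTF-derived ieSCs, and 27.2% and 24% in MEF-derived ieSCs. Fgf7, which encodes keratinocyte growth factor, had log2 levels of 6.73, 6.78, 5.89 and 6.0 in TTF-derived ieSCs, 6.92, 6.82, 7.35 and 6.62 in MEF-derived ieSCs and 14.11 and 14.37 in MEFs. Every ieSC array was far below both MEF arrays, and the ranges of the 2 ieSC groups overlapped. The difference in ieSCs minus MEFs was -7.60 ± 0.37 (SE), an intensity about 194-fold lower, with a limma adjusted p of 2.49e-07. Against MEFs it was -7.89 in TTF-derived and -7.31 in MEF-derived ieSCs, while TTF-derived minus MEF-derived ieSCs gave -0.58 with a 95% interval of -1.33 to 0.17.

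Fgf10, a mesenchymal ligand of limb and lung budding, had log2 levels of 3.97, 4.37, 4.35 and 4.09 in TTF-derived ieSCs, 4.23, 4.5, 4.23 and 4.16 in MEF-derived ieSCs and 8.48 and 8.36 in MEFs. All 8 ieSC arrays were dim for it and both MEF arrays were not, so Fgf10 passed the filter through the MEFs alone and had to differ. The difference was -4.18 ± 0.23 (SE) in ieSCs minus MEFs. The 10 features of the gene, which may be repeats of 1 probe, gave -5.57 to -4.18, all of them called. These features too passed the filter only through the MEF arrays, so their calls add no support. Fgf5, a ligand known for ending hair growth in mice, had log2 levels of 3.03, 3.65, 4.18 and 5.32 in TTF-derived ieSCs, 3.96, 3.68, 3.68 and 3.36 in MEF-derived ieSCs and 8.62 and 8.74 in MEFs. It too was dim on every ieSC array but TTF-derived 2b, and its difference was -4.82 ± 0.64 (SE) with an adjusted p of 0.00019. Fgf5 would not have passed the filter without the MEF arrays either.

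Fgf1, the acidic FGF that binds every FGF receptor, went the other way. Its log2 levels were 7.84, 7.98, 8.85 and 9.0 in TTF-derived ieSCs, 10.60, 10.61, 10.81 and 10.80 in MEF-derived ieSCs and 6.95 and 6.83 in MEFs. The groups did not overlap, and MEF-derived ieSCs stood highest. Fgf1 was 2.88-fold higher in TTF-derived ieSCs than in MEFs (log2 1.52 ± 0.32, SE, adjusted p = 0.00373). In MEF-derived ieSCs it was 14.1-fold higher than in MEFs (log2 3.81 ± 0.32, SE, adjusted p = 8.96e-06). The TTF-derived call was lost when the arrays of each name were averaged (adjusted p = 0.0881). A second Fgf1 feature was dimmer, and its differences from MEFs were smaller, at 0.16 for TTF-derived ieSCs (not called) and 0.77 for MEF-derived ieSCs (called).

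Fgf18, a ligand of cartilage and bone growth, ranged from 14.31 to 15.07 in TTF-derived ieSCs, 14.26 to 15.24 in MEF-derived ieSCs and 13.53 to 13.59 in MEFs. All ieSC arrays were above the MEF arrays, with a difference of 1.16 ± 0.31 (SE) and an adjusted p of 0.0109, which became 0.119 with names averaged (0.163 for TTF-derived and 0.13 for MEF-derived ieSCs). Its 2 features gave 1.14 and 1.16. Fgf9, the testis ligand, had levels of 10.99, 10.92, 12.21 and 11.99 in TTF-derived ieSCs, 12.44, 12.39, 11.78 and 11.66 in MEF-derived ieSCs and 11.72 and 11.67 in MEFs. Names 1 and 2 lay on either side of the MEF level in the TTF-derived group, and the MEF arrays fell inside the span of the ieSC arrays. Fgf9 did not pass the test, with a difference of 0.10 in ieSCs minus MEFs and a 95% interval of -0.73 to 0.94.

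Fgf2, the basic FGF, did not pass against MEFs either (log2 -0.01 in ieSCs minus MEFs, 95% interval -0.47 to 0.45), and none of its 10 kept features did. Fgf8 and Fgf22 did not pass in any comparison, with differences in ieSCs minus MEFs of 0.30 (95% interval -0.08 to 0.68) and 0.22 (-0.25 to 0.68). A second Fgf22 feature read 7.89 on MEF-derived array 2a and 4.45 to 4.60 on the other MEF-derived arrays. The 6 untested ligand genes Fgf3, Fgf4, Fgf6, Fgf16, Fgf17 and Fgf20 and the untested inhibitor gene Spry4 had features between 2.64 and 5.06 on the 10 arrays.

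**Figure D2:**
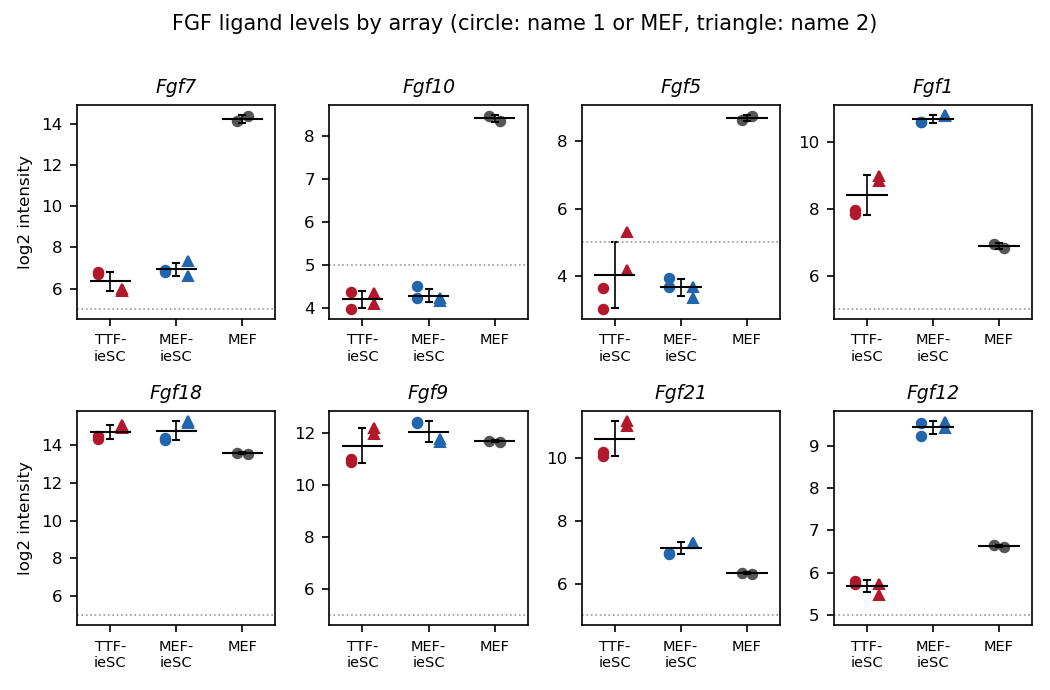
Log2 intensity of 8 FGF genes on each array, with TTF-derived ieSCs, MEF-derived ieSCs and MEFs from left to right. Circles are name 1 or MEF, triangles are name 2, the bar is the mean and its whiskers are 1 SD. The dotted line marks 5, near the 40th percentile, and the vertical axes differ between genes and do not start at 0. Fgf7, Fgf10 and Fgf5 are high in MEFs alone, Fgf21 is highest in TTF-derived ieSCs and Fgf12 in MEF-derived ieSCs.

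The 3 hormone-like FGF genes were all tested and were called different between the 2 kinds of ieSC. Of all tested genes, 16.8% were called higher and 19.2% lower in that comparison. With names averaged only the Fgf21 call held. Fgf21, a hormone of fasting and stress made mainly by liver, had log2 levels of 10.08, 10.20, 11.17 and 11.03 in TTF-derived ieSCs, 6.96, 6.98, 7.30 and 7.31 in MEF-derived ieSCs and 6.35 and 6.31 in MEFs. The TTF-derived arrays stood well above all others, and the MEF-derived ieSC arrays lay just above the MEF arrays without overlap. In TTF-derived ieSCs it was 19.5-fold higher than in MEFs (log2 4.29 ± 0.31, SE, adjusted p = 4.21e-06). In MEF-derived ieSCs the difference from MEFs was 0.80 with a 95% interval of 0.10 to 1.51, and it missed the threshold with an adjusted p of 0.0576. It passed in 4 alternative fits and not in 19, names averaged among the 19. The lowest adjusted p was 0.00215, when both arrays of TTF-derived name 2 were left out, which left the difference itself at 0.804. The promoter of Fgf21 printed above holds the composite element and the TATA motif, and their part in these differences was not tested.

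Fgf23, a bone hormone of phosphate balance, had log2 levels of 11.30, 11.38, 10.73 and 10.73 in TTF-derived ieSCs, 12.15, 12.02, 11.63 and 11.53 in MEF-derived ieSCs and 14.03 and 13.96 in MEFs. Both ieSC groups lay below the MEFs without overlap, at -2.96 ± 0.26 (SE) in TTF-derived and -2.16 ± 0.26 (SE) in MEF-derived ieSCs. The adjusted p values were 1.24e-05 and 8.77e-05. A second Fgf23 feature was mostly dim and not called, at -0.71 in ieSCs minus MEFs. Fgf15, the mouse counterpart of human FGF19 and a gut hormone of bile acid control, had log2 levels of 5.12, 5.21, 4.77 and 4.67 in TTF-derived ieSCs, 6.30, 6.64, 5.45 and 5.99 in MEF-derived ieSCs and 4.70 and 4.37 in MEFs. The MEF arrays were dim, and only the MEF-derived ieSC arrays stood clear of them, with a difference of 1.56 ± 0.40 (SE) and an adjusted p of 0.00882 (0.0531 with names averaged). For TTF-derived ieSCs the difference was 0.41, with a 95% interval of -0.48 to 1.30. The mean of both kinds minus MEFs gave 0.98, with an adjusted p of 0.0472 and of 0.118 with names averaged. Klb, the co-receptor of Fgf15 and Fgf21, ranged over 5.19 to 5.75 in TTF-derived ieSCs, 5.21 to 5.79 in MEF-derived ieSCs and 5.31 to 5.51 in MEFs and did not pass, at 0.09 in ieSCs minus MEFs (95% interval -0.57 to 0.74).

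The other 4 FGF members encode FGF homologous factors, which stay inside the cell, do not act through FGF receptors in the usual way and regulate sodium channels. Fgf12 had log2 levels of 5.73, 5.82, 5.73 and 5.48 in TTF-derived ieSCs, 9.54, 9.23, 9.40 and 9.55 in MEF-derived ieSCs and 6.66 and 6.62 in MEFs. It was highest in MEF-derived ieSCs and lowest in TTF-derived ieSCs, with no overlap between any groups. The difference from MEFs was -0.95 ± 0.20 (SE, adjusted p = 0.00388) in TTF-derived ieSCs and 2.80 ± 0.20 (SE, adjusted p = 3.21e-06) in MEF-derived ieSCs. All 11 features were called in both directions, from -1.57 to -0.69 in TTF-derived and from 1.86 to 2.88 in MEF-derived ieSCs.

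Fgf13 ranged over 4.71 to 4.97 in TTF-derived ieSCs, 4.80 to 5.15 in MEF-derived ieSCs and 6.75 to 6.77 in MEFs. It fell by 1.85 on the log2 scale in ieSCs (adjusted p = 5.35e-05), and every TTF-derived array was dim. Fgf11 and Fgf14 did not pass, with differences in ieSCs minus MEFs of 0.25 (95% interval -0.46 to 0.95) and 0.26 (-1.0 to 1.51).

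None of the 6 receptor genes was called higher in ieSCs than in MEFs and 4 were called lower, against 25.9% and 23.6% of all tested genes. With names averaged 3 of the 4 held, without Fgfr2. Fgfr1, the main receptor of mesenchymal cells, had log2 levels of 13.26, 13.28, 13.71 and 13.63 in TTF-derived ieSCs, 13.48, 13.39, 12.89 and 12.85 in MEF-derived ieSCs and 15.72 and 15.96 in MEFs. Both ieSC groups lay below the MEFs and overlapped each other, so that Fgfr1 was 5.78-fold lower in ieSCs (log2 -2.53 ± 0.22, SE, adjusted p = 1.16e-05). Its 3 features disagreed in size, at -2.53, -2.34 and -0.28, the last of them not called. The position of a feature in the gene was not used, so whether these features read different transcripts was not tested.

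Fgfr2, the receptor of Fgf9 in the fetal testis, had log2 levels of 9.22, 8.98, 9.32 and 9.55 in TTF-derived ieSCs, 9.46, 9.47, 9.61 and 9.57 in MEF-derived ieSCs and 9.86 and 9.93 in MEFs. All ieSC arrays were below both MEF arrays, by a small margin. The difference was -0.50 ± 0.18 (SE, adjusted p = 0.0416), and the call was lost in 10 alternative fits, names averaged among them (adjusted p = 0.115). For TTF-derived ieSCs alone the difference was -0.63 (adjusted p = 0.0251, and 0.0944 with names averaged). For MEF-derived ieSCs it was -0.37 and was not called (adjusted p = 0.145), nor was any of the 11 features there. In ieSCs minus MEFs the 11 features of Fgfr2 gave -0.62 to -0.38, and 3 were called. Fgfr3, best known from cartilage, had log2 levels of 9.73, 9.83, 9.75 and 9.79 in TTF-derived ieSCs, 10.54, 10.39, 9.90 and 9.86 in MEF-derived ieSCs and 9.81 and 9.64 in MEFs. The groups lay close together, and no difference passed (0.25 in ieSCs minus MEFs, 95% interval -0.20 to 0.69). Its other feature gave 0.63 and was called. Fgfr3 was also called higher in ieSCs with the mean of its features (0.437, adjusted p = 0.0393) and without both arrays of MEF-derived name 2 (0.394, adjusted p = 0.0312). In 21 other alternatives it was not called, names averaged among them.

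Fgfr4, a receptor of liver and muscle precursors, had log2 levels of 6.27, 6.02, 5.44 and 5.73 in TTF-derived ieSCs, 6.01, 5.69, 5.93 and 5.96 in MEF-derived ieSCs and 7.22 and 7.28 in MEFs. The ieSC groups overlapped and lay below the MEFs, at -1.37 ± 0.25 (SE, adjusted p = 0.00158), while a dimmer second feature gave -0.40 and was not called. Fgfrl1, a receptor that lacks the kinase and can act as a decoy, had log2 levels of 13.31, 13.43, 13.02 and 13.04 in TTF-derived ieSCs, 14.76, 14.79, 14.45 and 14.58 in MEF-derived ieSCs and 15.31 and 15.37 in MEFs. The 3 groups did not overlap, and TTF-derived ieSCs were lowest. Fgfrl1 was 4.4-fold lower in TTF-derived ieSCs (adjusted p = 7.4e-06) and 1.62-fold lower in MEF-derived ieSCs (adjusted p = 0.00746, and 0.0881 with names averaged) than in MEFs.

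**Figure D3:**
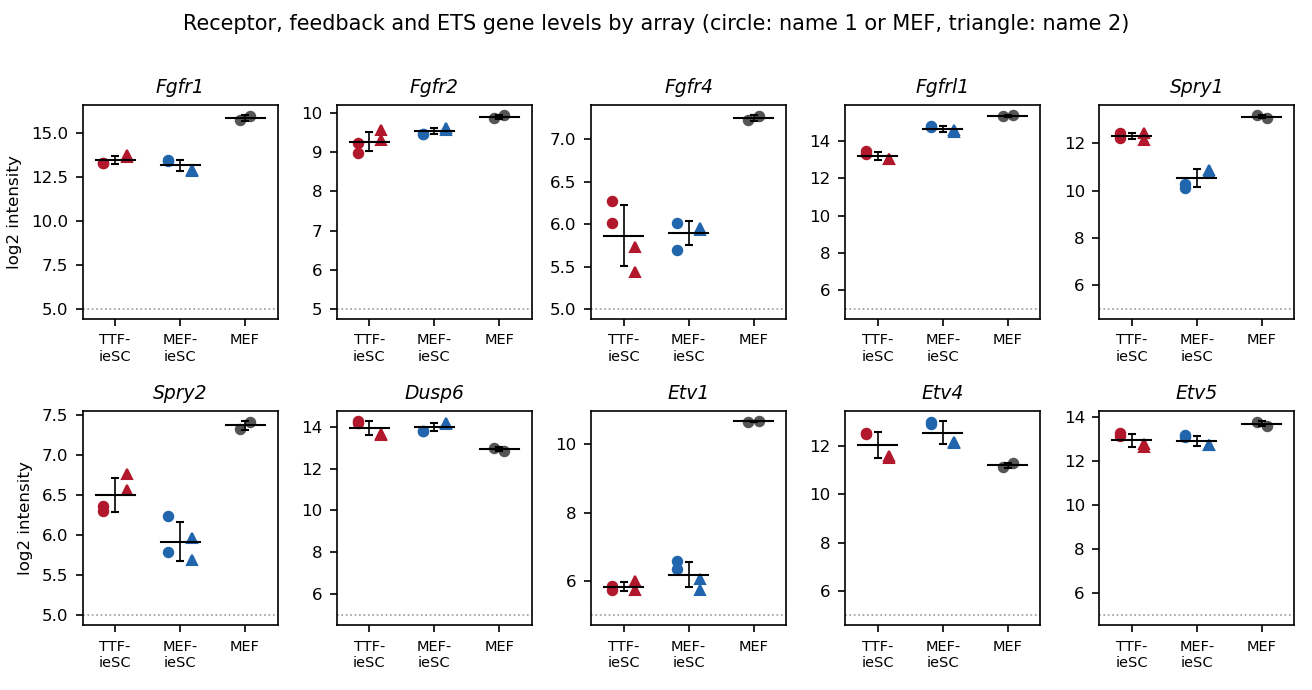
Log2 intensity of 4 receptor genes, 2 Sprouty genes, Dusp6 and 3 ETS genes on each array, with TTF-derived ieSCs, MEF-derived ieSCs and MEFs from left to right. Circles are name 1 or MEF, triangles are name 2, the bar is the mean and its whiskers are 1 SD. The dotted line marks 5, and the vertical axes differ between genes and do not start at 0. Dusp6 and Etv4 are higher in both ieSC groups than in MEFs and the other 8 genes are lower.

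Of 8 tested feedback and ETS genes, which FGF signalling is known to switch on, 2 were called higher (Dusp6, Etv4) and 4 lower (Spry1, Spry2, Etv1, Etv5) in ieSCs than in MEFs, against 25.9% and 23.6% of all tested genes. With names averaged, Spry1, Spry2 and Etv1 were still lower, and Dusp6, Etv4 and Etv5 did not pass. Spry1, a Sprouty inhibitor of receptor signalling, had log2 levels of 12.41, 12.22, 12.41 and 12.13 in TTF-derived ieSCs, 10.28, 10.11, 10.88 and 10.80 in MEF-derived ieSCs and 13.17 and 13.07 in MEFs. The groups did not overlap, and MEF-derived ieSCs were lowest, at -2.60 ± 0.26 (SE, adjusted p = 2.74e-05) against MEFs. In TTF-derived ieSCs the difference was -0.83 ± 0.26 (SE, adjusted p = 0.0271, and 0.13 with names averaged).

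Spry2 had log2 levels of 6.36, 6.30, 6.76 and 6.57 in TTF-derived ieSCs, 5.79, 6.24, 5.97 and 5.69 in MEF-derived ieSCs and 7.33 and 7.41 in MEFs. Every ieSC array was below both MEF arrays, and the difference was -1.16 ± 0.25 (SE, adjusted p = 0.00374). In TTF-derived ieSCs alone it was -0.87 (adjusted p = 0.027, and 0.0521 with names averaged). Spry4 was dim, with 4.57, 4.21, 4.18 and 4.31 in TTF-derived ieSCs, 3.78, 3.59, 3.97 and 3.49 in MEF-derived ieSCs and 4.02 and 4.37 in MEFs, and was not tested. Spred1 and Spred2, which block RAF activation, did not pass in any comparison. Their differences in ieSCs minus MEFs were -0.35 (95% interval -0.72 to 0.01) and 0.41 (-0.03 to 0.85). In MEF-derived ieSCs minus MEFs both lay near the threshold. Spred2 differed there by 0.56 (95% interval 0.08 to 1.04, adjusted p = 0.0522) and passed in 9 alternative fits but not in 14. Spred1 differed by -0.45 (-0.85 to -0.05, adjusted p = 0.0588) and passed in 5 but not in 18. With names averaged neither passed.

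Dusp6, the phosphatase that removes phosphate from ERK, had log2 levels of 14.16, 14.27, 13.62 and 13.64 in TTF-derived ieSCs, 13.79, 13.81, 14.19 and 14.13 in MEF-derived ieSCs and 13.0 and 12.86 in MEFs. All ieSC arrays were above the MEF arrays, and the ieSC groups overlapped. Dusp6 was 2.03-fold higher in ieSCs (log2 1.02 ± 0.21, SE, adjusted p = 0.00264), a call that was lost with names averaged (adjusted p = 0.0705). The same held in TTF-derived (adjusted p = 0.099) and in MEF-derived ieSCs (adjusted p = 0.0778).

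Of the 3 ETS genes, Etv1 had log2 levels of 5.73, 5.86, 5.75 and 6.02 in TTF-derived ieSCs, 6.58, 6.37, 6.07 and 5.75 in MEF-derived ieSCs and 10.67 and 10.68 in MEFs, and every ieSC array was far below the MEF arrays. It was 25.3-fold lower in ieSCs (log2 -4.66 ± 0.25, SE, adjusted p = 4.11e-07). The ieSC levels of Etv1 lay near the array medians (5.759 to 5.782), and a second Etv1 feature was dim on every array and was not tested. Etv4 had log2 levels of 12.49, 12.55, 11.53 and 11.60 in TTF-derived ieSCs, 12.93, 13.02, 12.14 and 12.16 in MEF-derived ieSCs and 11.14 and 11.29 in MEFs. Name 1 was above name 2 in both ieSC groups, and all ieSC arrays were above the MEF arrays. Etv4 was higher by 1.34 ± 0.38 (SE, adjusted p = 0.0147) in MEF-derived ieSCs. In TTF-derived ieSCs its difference of 0.83 did not pass (95% interval -0.03 to 1.68), and with names averaged neither did that of MEF-derived ieSCs (adjusted p = 0.144). The mean of both kinds minus MEFs gave 1.08, with an adjusted p of 0.0265 and of 0.186 with names averaged.

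Etv5 had log2 levels of 13.25, 13.10, 12.74 and 12.62 in TTF-derived ieSCs, 13.15, 13.06, 12.72 and 12.70 in MEF-derived ieSCs and 13.76 and 13.59 in MEFs. The MEF arrays were highest and the 2 ieSC groups overlapped. It fell by 0.76 on the log2 scale in ieSCs (± 0.21, SE, adjusted p = 0.0144, and 0.115 with names averaged). The calls within TTF-derived and within MEF-derived ieSCs were lost too (adjusted p = 0.151 and 0.13).

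TTF-derived and MEF-derived ieSCs were also compared with each other. Of the 30 tested members, 2 were higher and 6 lower in TTF-derived ieSCs, against 16.8% and 19.2% of all tested genes. The median difference was -0.14 over the members and -0.045 over all tested genes. Fgf21 was 11.2-fold higher in TTF-derived ieSCs (log2 3.48 ± 0.26, SE, adjusted p = 1.03e-05), and Spry1 3.43-fold higher (log2 1.78 ± 0.21, SE, adjusted p = 0.000199). Fgf12 was 13.4-fold lower (log2 -3.74 ± 0.17, SE, adjusted p = 3.95e-07), Fgf1 4.89-fold lower (adjusted p = 0.000162) and Fgfrl1 2.72-fold lower (adjusted p = 5.58e-05). These 5 calls held when the arrays of each name were averaged, with adjusted p values of 0.0221 for Fgf21, 0.0324 for Spry1, 0.00478 for Fgf12, 0.0405 for Fgf1 and 0.028 for Fgfrl1.

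Fgf15, Fgf23 and Fgf2 were lower in TTF-derived ieSCs by smaller amounts. Their differences were -1.15 (adjusted p = 0.0207), -0.80 (0.0151) and -0.74 (0.0111), and averaging names ended all 3 calls. For Fgf2 all 10 kept features were called, from -0.84 to -0.59, and its levels were 7.08 to 7.42 in TTF-derived and 7.61 to 8.25 in MEF-derived ieSCs. The second Fgf23 feature went the other way, at 0.77, and was not called. With the mean of its kept features the Fgf23 difference was -0.016 (limma adjusted p = 0.979). Leaving out both arrays of MEF-derived name 1 changed the counts to 4 higher and 3 lower. Cell cycle markers moved with this comparison, with 15 of 16 tested genes higher in TTF-derived ieSCs, against 16.8% of all tested genes. In MEF-derived ieSCs 14 of the 16 were lower than in MEFs and 0 higher, against 24% and 27.2% of all tested genes. In TTF-derived ieSCs 6 were higher than in MEFs and 0 lower, against 23.3% and 21.8%. The mean level of the 16 genes was 12.33 to 12.66 in TTF-derived ieSCs, 8.882 to 9.066 in MEF-derived ieSCs and 11.89 in MEFs. Their part in the FGF differences was not tested.

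**Figure D4:**
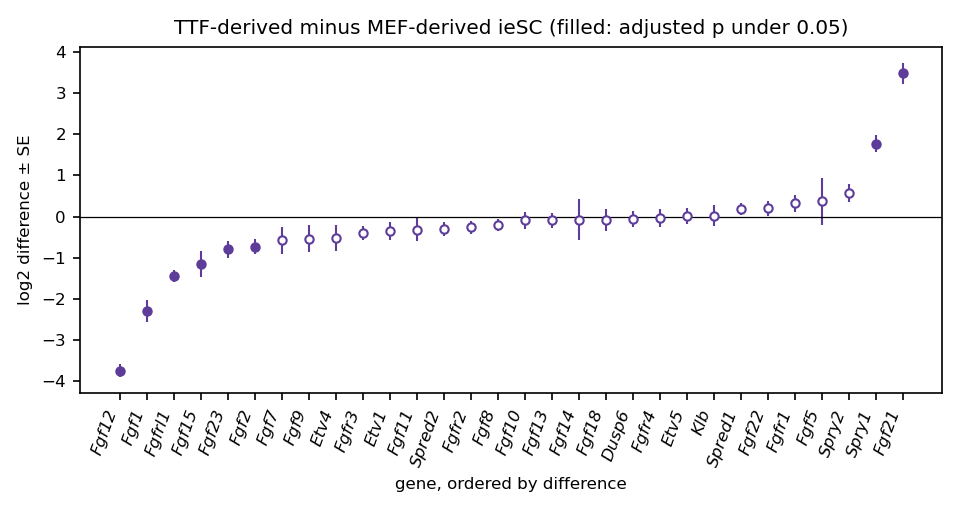
Log2 difference of TTF-derived minus MEF-derived ieSCs, with its standard error, for the 30 tested members in order of size. Filled points have a limma adjusted p under 0.05. Fgf12 lies lowest at -3.74 and Fgf21 highest at 3.48, and most members lie near 0.

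Several genes were read by more than 1 feature. Of the 37 members, 16 had more than 1 feature and 12 had more than 1 that passed the filter. Fgf2, Fgf10, Fgf12 and Fgfr2 had 10 or 11 kept features each, which may be repeats of 1 probe and are not independent measurements. In ieSCs minus MEFs, the features of Fgf2 (-0.15 to 0.08) and of Fgf22 (-0.09 and 0.22) lay on both sides of 0, and none of them was called. The features of Fgf1, Fgf10, Fgf12, Fgf23, Fgfr1 and Fgfr4 differed by more than 1 in at least 1 comparison. For Fgf10 in MEF-derived ieSCs minus MEFs they ran from -5.57 to -4.04, and for Fgfr4 the 2 values were -1.35 and -0.25. The Fgf10 feature at -4.04 read 6.55 on MEF-derived array 2a and 3.05 to 4.20 on the other MEF-derived arrays.

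**Figure D5:**
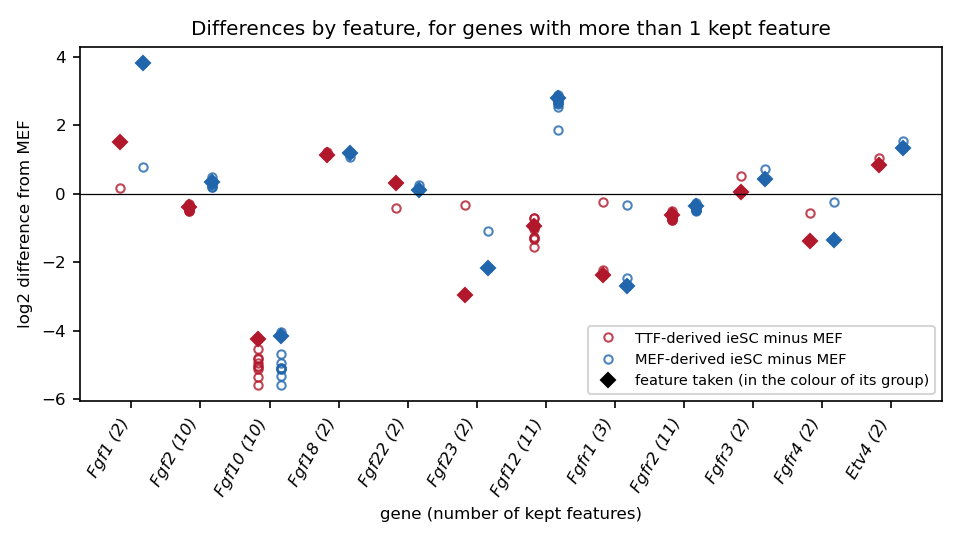
Log2 difference from MEFs of every kept feature, for the 12 genes with more than 1 kept feature. Red is TTF-derived ieSCs and blue MEF-derived ieSCs, and diamonds are the features used for the genes. The features of Fgf2 and Fgfr2 lie close together, and those of Fgf1, Fgf23 and Fgfr1 are spread.

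Names 1 and 2 of an ieSC group differed more than the arrays of 1 name. Over the 30 tested members the median gap between names was 0.34 in TTF-derived and 0.27 in MEF-derived ieSCs, and the median gap between arrays of 1 name was 0.135 and 0.12. In TTF-derived ieSCs, 3 members had a gap over 1, and these were Fgf5 (1.41), Fgf9 (1.14) and Fgf1 (1.01), each higher in name 2. No member of the MEF-derived group had one. Some gaps had the same sign in both groups. Name 2 minus name 1 was -0.95 in TTF-derived and -0.83 in MEF-derived ieSCs for Etv4, and 0.59 and 0.86 for Fgf18. The labels do not say whether names with the same number share a batch.

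Outside the family, 3 lists of pathway genes were counted. Of 24 genes of the signalling cascade below the receptors, 21 had a named feature and 20 were tested. Of these, 8 were higher and 2 lower in ieSCs than in MEFs, against 25.9% and 23.6% of all tested genes, with a median of 0.18 against 0.086. The 10 of 20 called are near the share over all genes, 8282 of 16726. Rps6ka3, an ERK-activated kinase, had a difference of 1.38 (adjusted p = 0.000297), Sos2, a RAS activator, of 1.30 (1.16e-05), and Map2k1, the kinase that activates ERK, of 1.18 (0.000368). Map2k1 had log2 levels of 13.88, 13.77, 13.57 and 13.90 in TTF-derived ieSCs, 14.34, 14.33, 14.43 and 14.57 in MEF-derived ieSCs and 12.86 and 12.98 in MEFs, with no overlap between groups. Against MEFs, 6 cascade genes were higher and 3 lower in TTF-derived ieSCs, and 7 and 3 in MEF-derived ieSCs. Between the 2 kinds of ieSC, 3 cascade genes were higher and 5 lower in TTF-derived ieSCs. The shares over all tested genes were 23.3% and 21.8% for TTF-derived ieSCs minus MEFs and 27.2% and 24% for MEF-derived ieSCs minus MEFs. Between the kinds they were 16.8% and 19.2%.

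Of 29 tested co-receptor and heparan sulfate genes, 8 were higher and 11 lower in ieSCs than in MEFs, with a median of -0.09. Over all tested genes 25.9% were higher and 23.6% lower, with a median of 0.086. The genes named by the rule were Gpc3 (-7.34) and Sdc3 (-6.21), which encode heparan sulfate proteoglycans, and Flrt2 (-4.56), which encodes a membrane protein of the FLRT family. Gpc3 was dim on every MEF-derived ieSC array, and Sdc3 and Flrt2 on every TTF-derived one, so these differences depend on the floor and have no order. Sdc3 had log2 levels of 3.86, 3.36, 3.79 and 3.94 in TTF-derived ieSCs, 9.55, 9.49, 8.52 and 8.46 in MEF-derived ieSCs and 12.63 and 12.52 in MEFs. Flrt2 showed the same order, with 4.87, 4.92, 4.26 and 4.02 in TTF-derived ieSCs, 9.68, 9.82, 8.89 and 8.98 in MEF-derived ieSCs and 11.56 and 11.42 in MEFs. Against MEFs, 6 were higher and 12 lower in TTF-derived ieSCs (23.3% and 21.8% of all tested genes). In MEF-derived ieSCs 11 were higher and 9 lower (27.2% and 24% of all tested genes). In TTF-derived minus MEF-derived ieSCs, 3 of the 29 genes were higher and 13 lower, against 16.8% and 19.2% of all tested genes. Among the lower genes were Sdc3 at -5.27 (adjusted p = 2.75e-06) and Flrt2 at -4.82 (2.85e-06).

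Of 22 further tested targets and inhibitors of ERK signalling, 7 were higher and 8 lower in ieSCs than in MEFs, against 25.9% and 23.6% of all tested genes, with a median of 0.14 against 0.086. Il17rd, which encodes the FGF inhibitor Sef, fell by 3.56 on the log2 scale (adjusted p = 7.34e-06), and the immediate-early gene Egr2 fell by 2.66 (0.00363). Ier3, an immediate-early gene, was higher by 2.47 (1.06e-06), with 15.39 to 15.74 in TTF-derived ieSCs, 15.62 to 15.96 in MEF-derived ieSCs and 13.16 to 13.28 in MEFs. Egr2 also split the MEF-derived ieSCs by name, with log2 levels of 9.39, 9.39, 9.85 and 9.97 in TTF-derived ieSCs, 9.08, 9.11, 6.95 and 7.09 in MEF-derived ieSCs and 11.47 and 11.56 in MEFs. Against MEFs, 6 were higher and 6 lower in TTF-derived ieSCs (23.3% and 21.8% of all tested genes). In MEF-derived ieSCs 6 were higher and 7 lower (27.2% and 24% of all tested genes). In TTF-derived minus MEF-derived ieSCs, 8 of the 22 were higher and 3 lower, against 16.8% and 19.2% of all tested genes.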

How the data were processed

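The deposited table holds log2 intensity per feature, 62976 features on 10 arrays. Limma is named in the submitters' processing notes without a version, and other steps are not given in the sources used here. The 10 deposited log2 columns share nearly the same distribution, so a change in total mRNA per cell cannot be seen. The log base was taken as 2 from the range of the values. Platform annotation gave 31465 features 1 gene symbol, 0 several and 31511 none. RefSeq accessions (assembly GRCm38.p6, used for names and promoter windows) matched 29036 features, and 2933 took a newer symbol.

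Features were kept where at least 2 arrays read them above that array's 40th percentile (42617 features, 25200 named). The brightest kept feature by mean stood for each of 16726 genes. Group means were fitted in limma 3.58.1 (R 4.3.3, statmod 1.5.0), with the array's name as a random block (consensus correlation 0.605) and Benjamini-Hochberg adjustment. Of 7 residual degrees of freedom few lie between names, so adjusted p values may be too small, and a lost call with the 2 arrays of each name averaged is given beside the member it concerns. The procedure was tested on simulated data. Detection flags were not used here, and the number of arrays limits precision. Values on every array are given for members past the threshold with at least a 4-fold difference from MEFs or a 2-fold difference between kinds of ieSC, and for Fgfr1 to Fgfr4, Spry1, Spry2, Spry4, Dusp6, Etv1, Etv4 and Etv5. Fgf9 and Fgf2 values beyond this and Sdc3, Flrt2, Map2k1, Ier3 and Egr2 levels were chosen after their values were seen. So were the name gaps of Etv4 and Fgf18 and the single spots of Fgf22 and Fgf10. From each pathway list the 3 called genes with the largest difference in ieSCs minus MEFs are named. The members and lists were chosen with earlier results of these data known. Alternatives were names averaged, no block, other filters, the mean of features, every feature tested, other scalings, an intensity trend, arrays or names left out and the name number as a block.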

Additional observations from a re-analysis of the deposited data

Results flagged for a closer look

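Fgf11 on TTF-derived ieSC array 1b read 6.39, against 5.79 to 5.87 on the other arrays of that group, a gap of 0.864 of the group's range, above Dixon's critical value for 4 arrays. This was 1 of 60 groups of 4 arrays tested, and chance alone flags about 1 in 20.

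By the limma test of the difference itself, the effect against MEFs differed between TTF-derived and MEF-derived ieSCs for 8 of 30 tested members. That is 26.7% of them, where 6023 of all 16726 tested genes were called. The difference, TTF-derived minus MEF-derived ieSCs, was 3.484 for Fgf21 and 1.777 for Spry1. It was -3.743 for Fgf12, -2.289 for Fgf1, -1.443 for Fgfrl1, -1.149 for Fgf15, -0.797 for Fgf23 and -0.737 for Fgf2. The calls of Fgf15, Fgf23 and Fgf2 were lost with names averaged. In each group all 4 arrays of Fgf12 lay on their own side of the MEF arrays, below in TTF-derived and above in MEF-derived ieSCs.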

How the results depend on the processing

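Over the single-gene values recomputed, 2648 stayed on their side of the threshold, 61 lost a call and 53 gained one. No single-gene difference changed direction in any of the alternatives where the main difference was called. Of 64 member calls over the 4 comparisons, 42 were lost in no alternative that tested the gene. The other 22 were lost with names averaged, 13 of them also elsewhere. The Fgf13 calls were not retested with the 60th percentile filter, which Fgf13 did not pass. Averaging names changed the calls over all genes to 5521 in ieSCs minus MEFs (main 8282), 4782 in TTF-derived ieSCs minus MEFs (main 7544) and 2436 in TTF-derived minus MEF-derived ieSCs (main 6023). In MEF-derived ieSCs minus MEFs 5922 genes were then called (main 8559). Member counts became 3 higher in ieSCs minus MEFs, 1 higher in TTF-derived ieSCs minus MEFs, 2 higher in MEF-derived ieSCs minus MEFs and 3 lower in TTF-derived minus MEF-derived ieSCs. Members lower than in MEFs became 11 in ieSCs (main 13), 10 in TTF-derived (main 14) and 10 in MEF-derived ieSCs (main 12). This fit has 5 values in place of 10. Leaving out arrays or names gave 7353 to 9209 calls in ieSCs minus MEFs, 6754 to 8284 in TTF-derived and 7735 to 9699 in MEF-derived ieSCs minus MEFs, and 5072 to 6616 between the kinds. Members higher and lower then ranged over 6 to 8 and 12 to 14 in ieSCs minus MEFs, 3 to 4 and 12 to 14 for TTF-derived ieSCs, 6 to 8 and 11 to 14 for MEF-derived ieSCs, and 2 to 4 and 3 to 8 between the kinds. Without MEF-derived name 1, 4 members were higher and 3 lower between the kinds. No label says that names of the 2 ieSC groups with the same number share a culture, batch or day. The differences of name 2 minus name 1 correlated at 0.296 between the groups over genes. With that number as a replicate block, 8373 genes were called between the kinds, 3 members higher and 8 lower, with Etv4 (adjusted p = 0.000665), Fgfr3 (0.0378) and Spry2 (0.0324) added. Signals near the array floor limit Fgf5, Fgf10, Fgf13 and Fgf15.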
